A study of Mus musculus with 12 samples.

Results

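Genes of sebaceous gland lipid synthesis were followed in dorsal skin of mice that overexpress the cytokine IL-17C, with and without IL-6. The members were a fixed list of 9 genes, namely Scd1, Scd3, Elovl3, Elovl6, Awat2, Dgat2, Soat1, Fasn and Acsbg1. Of these, 8 had an array row that names the gene alone and entered the tests among 22180 genes; Soat1 was not analysed here. The rule that sets the list uses gene names and no measured value, but the list was drawn up with earlier results of these data known. The study has 12 expression arrays, each hybridised with RNA pooled from male and female C57Bl/6 mice. The 6 groups were labelled IL-17C+KO involved (transgene for IL-17C, IL-6 knock-out, affected area), IL-17C+ involved (transgene, IL-6 intact, affected area), IL-17C+KO uninvolved and IL-17C+ uninvolved (unaffected areas of these genotypes), IL-6KO (no transgene) and WT. Each group holds a 14-week and a 10-week pool (n = 2), of 5 mice except for 4 mice in the 10-week pools of WT and IL-6KO, and 58 mice in all. No source used here gives the promoter that drives the transgene, or says whether involved and uninvolved pools share mice. All groups share the C57Bl/6 strain and the region of skin, and the labels mark the IL-6KO pools as involved and the WT pools as uninvolved skin.

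Sebocytes, the cells of the sebaceous gland, fill with neutral lipid and burst to release sebum onto the hair and skin. Fatty acids are built by fatty acid synthase, lengthened by elongases, desaturated by stearoyl-CoA desaturases, and then joined to glycerol, to long-chain alcohols or to cholesterol to give triglycerides, wax esters and cholesterol esters. Several of these enzymes also work in adipocytes and in the epidermis. In bulk skin, fewer cells of a type and less RNA per cell cannot be told apart.

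Values below are log2 of the deposited array intensities, and differences are log2 values of the first named group minus the second with the standard error (SE) of limma. The threshold for passing was 0.05 on the limma p adjusted by Benjamini-Hochberg over 22180 genes. Levels of different genes come from different probes and are not set against each other. The 2 ages serve as replicates, so the p-values reflect spread between pools and not between mice, and 2 arrays a group limit the precision. Array medians lay between 3.97 and 4.23 (log2), and 7 of the 8 genes lay above the median on all 12 arrays. The exception was Awat2, below it on 5 arrays.

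Before the lipid genes, the labels were set against the genes they name and against marker lists. Il17c, the gene the transgene overexpresses, had 6.63 and 5.81 at 14 and 10 weeks in IL-17C+ involved, against 4.96 and 4.67 in WT skin. It also had 6.17 and 6.30 in the pools labelled IL-6KO, to which the labels give no transgene, while uninvolved skin of IL-17C+ mice had 4.16 and 4.74. In IL-17C+KO mice Il17c had 5.62 and 5.32 in involved, against 6.25 and 6.16 in uninvolved skin. Il6, the disrupted gene, had 2.79 and 2.68 in IL-6KO, against 2.88 and 2.92 in WT skin, and it had 5.00 and 4.93 in IL-17C+KO uninvolved, against 3.02 and 3.28 in IL-17C+ uninvolved skin. In involved skin it had 4.64 and 3.14 in IL-17C+KO mice, against 3.21 and 4.23 in IL-17C+ mice, so neither IL-17C+KO group had less Il6 at both ages than its IL-17C+ counterpart. Whether these array rows read the transgene or the deleted part of Il6 was not examined here. The mean of 11 stress keratinocyte genes (such as Krt6b, S100a8 and Saa3) was 8.20 and 5.90 at 14 and 10 weeks in IL-17C+KO involved skin, against 10.36 and 10.18 in IL-17C+KO uninvolved skin. In the IL-17C+ mice it was 10.50 and 10.38 in involved skin, against 5.02 and 5.85 in uninvolved skin. Inflammation genes thus went against the involved and uninvolved labels in the IL-17C+KO mice, and every direction below that uses IL-17C+KO or IL-6KO pools rests on these labels. Sebaceous markers outside the list were present in every group, with Krt79 at 9.47 to 10.62, Cidea at 7.08 to 8.34 and the sebocyte receptor gene Mc5r at 5.17 to 5.78 over the 12 arrays. Of the 21 other sebaceous gland genes with a row, 18 lay above the median on all 12 arrays; Hsd3b6, Krt7 and Mogat2 did not.

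Scd3, a stearoyl-CoA desaturase of mouse skin that puts a double bond into saturated fatty acids, varied most of the 8 genes. At 14 and 10 weeks it had 7.32 and 8.23 in IL-17C+KO involved, 6.93 and 5.95 in IL-17C+ involved, 6.49 and 6.16 in IL-17C+KO uninvolved skin, 8.90 and 9.72 in IL-17C+ uninvolved, 6.97 and 7.88 in IL-6KO and 9.29 and 8.81 in WT skin. IL-17C+ uninvolved and WT skin were the highest and overlapped, while IL-17C+ involved and IL-17C+KO uninvolved skin were the lowest and overlapped too. Its range of 3.76 over the 12 arrays was wider than that of 99.3% of all genes.

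Acsbg1, an acyl-CoA synthetase that activates long-chain fatty acids, had a like order in a narrower range of 1.19. It had 7.87 and 7.99 at 14 and 10 weeks in IL-17C+KO involved, 7.22 and 7.02 in IL-17C+ involved, 7.06 and 7.38 in IL-17C+KO uninvolved skin, 8.16 and 8.16 in IL-17C+ uninvolved, 7.76 and 7.85 in IL-6KO and 8.21 and 7.95 in WT skin. The 4 pools of IL-17C+ involved and IL-17C+KO uninvolved skin lay below the other 8 pools, which held between 7.76 and 8.21. The largest gap between the 2 pools of a group was 0.32, in IL-17C+KO uninvolved skin.

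The upstream sequences of both genes are shown because these genes moved together, with that of Fasn, which did not move with them, for contrast. They are the 250 bases before a transcript start in the RefSeq promoter table (GRCm38.p6), which held 5 of the 8 genes, 5′ to 3′ along the gene. The Scd3 and Acsbg1 windows adjoin the outermost start of the gene, while the Fasn window lies inside the annotated gene, before an internal start. Capitals mark the CCAAT box, searched on both strands as CCAAT.
Scd3 upstream window (GRCm38.p6, chr19:44203038-44203287, plus strand): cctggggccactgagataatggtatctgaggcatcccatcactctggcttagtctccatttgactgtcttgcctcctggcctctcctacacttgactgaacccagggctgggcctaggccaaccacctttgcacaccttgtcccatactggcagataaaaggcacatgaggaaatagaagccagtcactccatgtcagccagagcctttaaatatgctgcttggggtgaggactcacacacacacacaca
Acsbg1 upstream window (GRCm38.p6, chr9:54661886-54662135, minus strand): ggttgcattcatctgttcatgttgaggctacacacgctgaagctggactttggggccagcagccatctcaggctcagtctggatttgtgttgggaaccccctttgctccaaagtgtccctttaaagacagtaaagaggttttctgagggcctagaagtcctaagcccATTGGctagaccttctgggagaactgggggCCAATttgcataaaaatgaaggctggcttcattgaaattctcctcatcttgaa
Fasn upstream window (GRCm38.p6, chr11:120824548-120824797, minus strand): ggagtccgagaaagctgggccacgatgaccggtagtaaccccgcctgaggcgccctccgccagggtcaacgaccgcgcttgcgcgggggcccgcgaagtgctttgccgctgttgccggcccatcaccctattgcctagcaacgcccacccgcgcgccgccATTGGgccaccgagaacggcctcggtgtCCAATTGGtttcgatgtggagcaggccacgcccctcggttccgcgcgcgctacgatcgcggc
CCAAT was found at 53 and 83 bases before the start of Acsbg1 (counted from the far end of the match) and at 59, 62 and 90 bases before that of Fasn, where the matches at 59 and 62 are on opposite strands and overlap. The Scd3 window held none, and 33.8% of the 32851 windows of this length in the table did. The sterol regulatory element searched as TCACNCCAC (1.05% of all windows), the E-box CACGTG (6.02%), the GC box GGGCGG (32.7%) and the PPAR direct repeat, AGGTCA and again AGGTCA after a gap of 1 base (0.0335%), gave no match on either strand in these 3 windows. A match is only a description of these letters, and no match says only that they are not in this window. GC content was 52.4% in the Scd3 window, 48.4% in that of Acsbg1 and 69.2% in that of Fasn, with a median of 52.4% over all windows.

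Scd1, the main desaturase of sebocytes, whose loss in asebia mice leaves the sebaceous glands stunted, moved within a range of 1.54. It had 11.09 and 10.68 at 14 and 10 weeks in IL-17C+KO involved, 10.86 and 10.66 in IL-17C+ involved, 10.81 and 10.38 in IL-17C+KO uninvolved skin, 9.81 and 10.38 in IL-17C+ uninvolved, 11.20 and 10.94 in IL-6KO and 10.84 and 9.66 in WT skin. The WT pools differed by 1.19 from each other, more than the pools of any other group, and neighbours in the order of group means overlapped throughout. Scd1 and Scd3 are neighbouring paralogs on chromosome 19, and whether their probes read each other's RNA was not examined here.

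Elovl3, which lengthens fatty acids of sebum and is expressed in sebaceous glands and hair follicles, moved the other way from Scd3. It had 10.60 and 8.82 at 14 and 10 weeks in IL-17C+KO involved, 10.11 and 10.05 in IL-17C+ involved, 10.09 and 9.44 in IL-17C+KO uninvolved skin, 7.52 and 8.56 in IL-17C+ uninvolved, 10.61 and 9.67 in IL-6KO and 7.53 and 7.80 in WT skin. The 4 pools of IL-17C+ uninvolved and WT skin lay below the other 8, which overlapped with each other. The 2 IL-17C+KO involved pools differed by 1.77.

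Elovl6, which lengthens palmitate to stearate, moved within a range of 1.29. Its levels at 14 and 10 weeks were 9.66 and 8.52 in IL-17C+KO involved, 8.88 and 9.40 in IL-17C+ involved, 9.22 and 8.97 in IL-17C+KO uninvolved skin, 8.997 and 9.81 in IL-17C+ uninvolved, 9.71 and 9.69 in IL-6KO and 9.56 and 8.99 in WT skin. Every group overlapped with the next in the order of means, though both IL-6KO pools lay above all pools of every other group but IL-17C+ uninvolved.

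Fasn, fatty acid synthase, makes the palmitate from which the others work. It had 9.51 and 9.10 at 14 and 10 weeks in IL-17C+KO involved, 9.48 and 8.90 in IL-17C+ involved, 9.08 and 8.58 in IL-17C+KO uninvolved skin, 8.56 and 8.70 in IL-17C+ uninvolved, 9.58 and 9.08 in IL-6KO and 9.46 and 8.37 in WT skin. As with Scd1, the lowest pool was WT at 10 weeks and the highest was IL-6KO at 14 weeks.

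Of the 2 acyltransferases measured, Dgat2 carries out the last step of triglyceride synthesis. Dgat2 had 8.99 and 8.94 at 14 and 10 weeks in IL-17C+KO involved, 8.81 and 8.23 in IL-17C+ involved, 8.20 and 8.48 in IL-17C+KO uninvolved skin, 8.17 and 8.25 in IL-17C+ uninvolved, 8.84 and 8.39 in IL-6KO and 8.98 and 7.93 in WT skin. The WT pools spanned nearly the whole range of 1.06. Awat2, which joins fatty acids to alcohols to give wax esters, had 4.10 and 3.62 at 14 and 10 weeks in IL-17C+KO involved, 3.65 and 3.70 in IL-17C+ involved, 4.23 and 3.78 in IL-17C+KO uninvolved skin, 5.03 and 4.59 in IL-17C+ uninvolved, 4.39 and 4.83 in IL-6KO and 4.63 and 4.08 in WT skin. These lie close to the array medians, so Awat2 differences are of uncertain size.

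**Figure D1:**
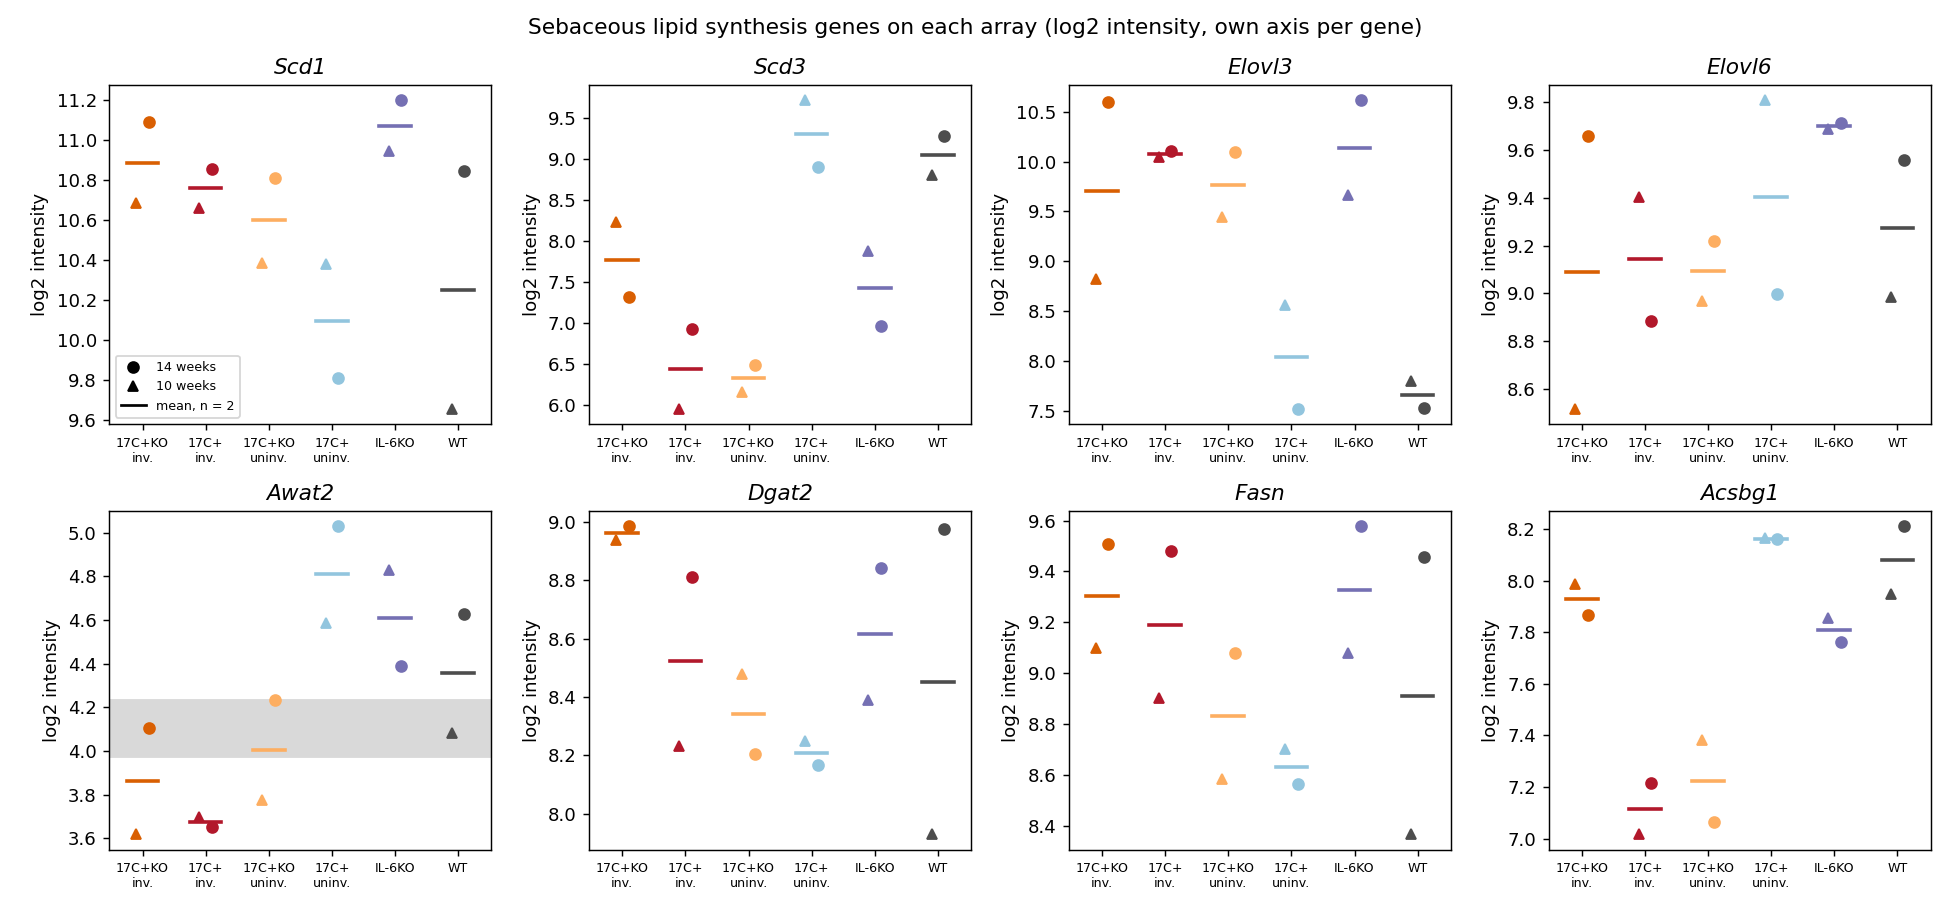
Log2 intensity of each of the 8 genes (vertical axes, own scale per gene) in the 6 groups, with circles for 14-week and triangles for 10-week pools and a line for the mean of n = 2. Scd3 and Acsbg1 are lowest in IL-17C+ involved and IL-17C+KO uninvolved skin, Elovl3 is lowest in IL-17C+ uninvolved and WT skin, and the grey band in the Awat2 panel spans the array medians of 3.97 to 4.23.

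In IL-17C+ involved against WT skin, Scd3 fell and Elovl3 rose. Scd3 averaged 6.44 ± 0.69 in IL-17C+ involved and 9.05 ± 0.34 in WT skin (SD, n = 2 each), a difference of -2.61 ± 0.43 (SE) or 6.09-fold (limma adjusted p = 0.0107), lower at both ages. Elovl3 averaged 10.08 ± 0.04 in IL-17C+ involved and 7.66 ± 0.19 in WT skin (SD, n = 2 each), a difference of 2.42 ± 0.50 (SE) or 5.34-fold (limma adjusted p = 0.029), higher at both ages. So 2 of the 8 genes passed, 1 in each direction, where 1.8% of all genes passed (1.1% higher and 0.699% lower). Acsbg1 differed by -0.96 ± 0.24 (limma adjusted p = 0.066) and Awat2 by -0.68 ± 0.27 (limma adjusted p = 0.307) without passing; Acsbg1 passed with eBayes without the trend (limma adjusted p = 0.0423) and after quantile normalization again (-1.02, limma adjusted p = 0.0298). Scd1 (0.51 ± 0.35), Fasn (0.28 ± 0.29), Dgat2 (0.07 ± 0.31) and Elovl6 (-0.13 ± 0.39) did not pass, and their 95% intervals leave room for differences from -0.98 to 1.27. The median of the 8 was -0.03, against 0.01 over all genes.

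Those calls rest on few arrays. Without the 10-week IL-17C+ involved array Scd3 was -1.93 (limma adjusted p = 0.182), and without the 14-week WT array -2.23 (limma adjusted p = 0.0961). Elovl3 did not pass without the 10-week IL-17C+ involved array (limma adjusted p = 0.285), the 14-week one (0.15) or the 14-week WT array (0.179), with values between 2.04 and 2.59. It also missed after leaving out WT and IL-6KO at 10 weeks (2.73, limma adjusted p = 0.0627) or all IL-6KO and IL-17C+KO uninvolved arrays (2.42, limma adjusted p = 0.0506), both settings chosen after seeing the data. Over the alternatives other than covariates the limma adjusted p ran from 3.45e-10 to 0.182 for Scd3 and from 6.77e-08 to 0.285 for Elovl3. Stress keratinocyte genes moved with this comparison, with 10 of 11 higher. So did the skeletal muscle list, of which no gene lay below the median on all arrays: 14 of its 15 genes fell, and its mean was 7.59 and 7.91 at 14 and 10 weeks in IL-17C+ involved, against 10.59 and 9.85 in WT skin. With that mean as a covariate 0 of the 8 genes and 0 of all genes passed. Among hair shaft genes 3 of 15 rose, with a list mean of 6.49 and 7.15 in IL-17C+ involved, against 5.45 and 5.03 in WT skin; their part in the Elovl3 result was not tested. Among 12 adipocyte genes only Car3 passed (-1.82 ± 0.33), and the list mean was 6.89 and 6.66 in IL-17C+ involved, against 7.76 and 6.50 in WT skin.

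Against uninvolved skin of the same genotype, IL-17C+ involved skin again had less Scd3. It fell by 2.87 on the log2 scale (SE 0.43, 7.30-fold, limma adjusted p = 0.00535) against a mean of 9.31 ± 0.58 in IL-17C+ uninvolved skin (SD, n = 2), and was lower at both ages. Scd3 was the only 1 of the 8 to pass, where 1.61% of all genes did (0.834% lower). Acsbg1 (-1.05 ± 0.24, limma adjusted p = 0.0513), Awat2 (-1.13 ± 0.27, limma adjusted p = 0.0564) and Elovl3 (2.04 ± 0.50, limma adjusted p = 0.0674) lay just outside the threshold. The pools of both sites did not overlap for 6 of the 8, where 47.9% of all genes had no overlap. With genotype and age as a replicate block all 3 passed, at adjusted p of 0.0401 for Acsbg1, 0.0401 for Awat2 and 0.0296 for Elovl3 (limma), which gave 4 of 8. The share of all genes passing under this block is not given here, so the gain cannot be read as particular to these genes. Over the alternatives other than covariates and single arrays left out, the limma adjusted p ran from 0.032 to 0.0546 for Acsbg1, 0.0291 to 0.0864 for Awat2 and 0.00405 to 0.0883 for Elovl3. The Scd3 call ended without the 10-week IL-17C+ involved array (-2.20, limma adjusted p = 0.101) or the 10-week IL-17C+ uninvolved array (-2.46, limma adjusted p = 0.0633), with a range of 0.00195 to 0.101 over the alternatives other than covariates, and with the muscle list mean as a covariate 0 of the 8 passed. The share of all genes with this covariate is not given here, so 0 of the 8 cannot be read as particular to them. Over the alternatives other than single arrays left out, 0 to 770 of all genes passed (357 as reported). Muscle means were 7.59 and 7.91 at 14 and 10 weeks in involved, against 10.09 and 10.46 in uninvolved skin, and 13 of 15 muscle genes fell.

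In the IL-17C+KO mice the same contrast of sites gave no call among the 8, where 0.505% of all genes passed. Scd3 was higher in the pools labelled involved, at 7.77 ± 0.65 in those pools and 6.32 ± 0.24 in the pools labelled uninvolved (SD, n = 2 each), by 1.45 ± 0.43 (limma adjusted p = 0.326), and Acsbg1 by 0.70 ± 0.24 (limma adjusted p = 0.472). The test of the difference between genotypes passed for both genes. The site difference was 1.45 in IL-17C+KO and -2.87 in IL-17C+ skin for Scd3, and 0.70 and -1.05 for Acsbg1, opposite in sign. The first minus the second was 4.32 ± 0.61 for Scd3 (limma adjusted p = 0.00234) and 1.75 ± 0.34 for Acsbg1 (limma adjusted p = 0.0158). These were 2 of 8, both positive, where 2.58% of all genes passed (1.15% positive). At 14 and 10 weeks the Scd3 value was 2.79 and 5.84, and the Acsbg1 value 1.75 and 1.75. Elovl3 (-2.10 ± 0.70, limma adjusted p = 0.187) and Awat2 (0.99 ± 0.38, limma adjusted p = 0.277) did not pass. Scd3 kept its call with each single array left out, at 3.65 to 4.99. Acsbg1 lost it when IL-17C+ involved skin at 14 weeks (limma adjusted p = 0.0599) or at 10 weeks (0.107), IL-17C+KO involved skin at 10 weeks (0.11) or IL-17C+KO uninvolved skin at 14 weeks (0.118) was left out, at 1.57 to 1.88, with a range of 0.0101 to 0.118 over the alternatives other than covariates. The stress keratinocyte list moved with this contrast, with 10 of 11 genes passing on the negative side, and so did the muscle list, with 13 of 15 on the positive side. With the muscle mean as a covariate 0 of the 8 passed, and the share of all genes with it is not given here. Over the alternatives other than single arrays left out, 14 to 861 of all genes passed (573 as reported). Whether the site labels of the IL-17C+KO pools hold was not tested. Both interactions depend on these labels: the IL-17C+KO part (1.45 for Scd3 and 0.70 for Acsbg1) would change sign if they were exchanged. Both parts would then be negative, and the interactions smaller.

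By the labels, IL-17C+KO involved against IL-6KO skin addresses the transgene without IL-6, although Il17c was lower and Il6 higher in the pools labelled IL-17C+KO involved than in those labelled IL-6KO. None of the 8 genes passed, where 0.171% of all genes did. Scd3 differed by 0.35 ± 0.43, Elovl3 by -0.43 ± 0.50 and Acsbg1 by 0.12 ± 0.24 (limma adjusted p = 0.999 each), and the 95% interval of Scd3 ran from -0.59 to 1.29. The interaction, this labelled difference minus that of IL-17C+ involved against WT skin, passed for Scd3 at 2.95 ± 0.61 (limma adjusted p = 0.0353). That is 1 of 8, where 1.31% of all genes passed (0.473% positive). Elovl3 had -2.85 ± 0.70 (limma adjusted p = 0.0808) and Acsbg1 1.08 ± 0.34 (limma adjusted p = 0.206). By label IL-6KO pools are involved and WT pools uninvolved skin, so the site label differs between the 2 parts of the interaction. Site and transgene cannot be told apart in it. Scd3 lost this call without the 10-week IL-17C+ involved (limma adjusted p = 0.218), 10-week IL-17C+KO involved (0.223), 14-week WT (0.169) or 14-week IL-6KO array (0.16), and with eBayes without the trend (0.0502), within a range of 0.0176 to 0.223 over the alternatives other than covariates. Its values then lay between 2.28 and 2.95. The adipocyte or muscle mean as a covariate also left 0 of the 8, and the share of all genes with them is not given here. Over the alternatives other than single arrays left out, 0 to 390 of all genes passed (290 as reported). In this contrast 13 of 15 muscle genes passed on the positive side, and 11 of 15 hair shaft and 9 of 11 stress keratinocyte genes on the negative side.

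IL-6KO skin without the transgene was set against WT next. The labels mark the IL-6KO pools as involved and the WT pools as uninvolved skin, so IL-6 status and site cannot be told apart here. Elovl3 averaged 10.14 ± 0.67 in IL-6KO and 7.66 ± 0.19 in WT skin (SD, n = 2 each), a difference of 2.48 ± 0.50 that did not pass (limma adjusted p = 0.0563). Scd3 differed by -1.62 ± 0.43 (limma adjusted p = 0.178) and Scd1 by 0.82 ± 0.35 (limma adjusted p = 0.554). None of the 8 passed, where 0.455% of all genes did. Elovl3 did pass when only genes above the array median on at least 2 arrays were tested (limma adjusted p = 0.0405) and in a fit of these 4 arrays alone (0.00938), and its limma adjusted p reached 0.109 among the alternatives other than covariates and single arrays left out. Hair shaft genes moved along, with 9 of 15 higher and a list mean of 7.84 and 7.81 at 14 and 10 weeks in IL-6KO, against 5.45 and 5.03 in WT skin. Also, 2 of 15 muscle genes were lower, with a list mean of 8.07 and 9.03 in IL-6KO, against 10.59 and 9.85 in WT skin. Of the 11 stress keratinocyte genes 1 was higher, with a list median of 2.45. The part of these lists in the Elovl3 value was not tested.

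Uninvolved skin differed by genotype in Scd3. It averaged 6.32 ± 0.24 in uninvolved skin of IL-17C+KO mice and 9.31 ± 0.58 in that of IL-17C+ mice (SD, n = 2 each), a difference of -2.99 ± 0.43 or 7.92-fold (limma adjusted p = 0.00532), lower at both ages. It was 1 of 8, where 0.712% of all genes passed (0.171% lower). Elovl3 (1.73 ± 0.50, limma adjusted p = 0.221), Acsbg1 (-0.94 ± 0.24, limma adjusted p = 0.142) and Awat2 (-0.80 ± 0.27, limma adjusted p = 0.317) did not pass. Without the 10-week IL-17C+KO uninvolved array Scd3 was -2.70 (limma adjusted p = 0.0872, from 0.000311 upwards among the alternatives other than covariates), and with the muscle list mean as a covariate 0 of the 8 passed. The share of all genes with this covariate is not given here. Over the alternatives other than single arrays left out, 3 to 354 of all genes passed (158 as reported). The stress keratinocyte list moved with Scd3: 9 of 11 genes rose in IL-17C+KO uninvolved skin, against IL-17C+ uninvolved skin. Of the muscle genes 2 of 15 fell, with a list median of -1.54 and a list mean of 8.82 and 8.30 at 14 and 10 weeks in IL-17C+KO mice, against 10.09 and 10.46 in IL-17C+ mice.

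The other 3 contrasts gave no call among the 8. Between IL-17C+KO involved and IL-17C+ involved skin, where 0.649% of all genes passed, Scd3 had 1.33 ± 0.43 (limma adjusted p = 0.267) and Acsbg1 0.81 ± 0.24 (limma adjusted p = 0.202). Between IL-17C+KO uninvolved and IL-6KO skin all 8 differences were negative, from -0.28 for Dgat2 to -1.10 for Scd3 (limma adjusted p = 0.569), where 0.397% of all genes passed. The labels give these groups different sites as well, since the IL-6KO pools are marked as involved. Between IL-17C+ uninvolved and WT skin, where 0.0541% of all genes passed, the 8 lay between -0.28 (Fasn) and 0.45 (Awat2, limma adjusted p = 0.893). Several of these comparisons share arrays and are not independent of each other.

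**Figure D2:**
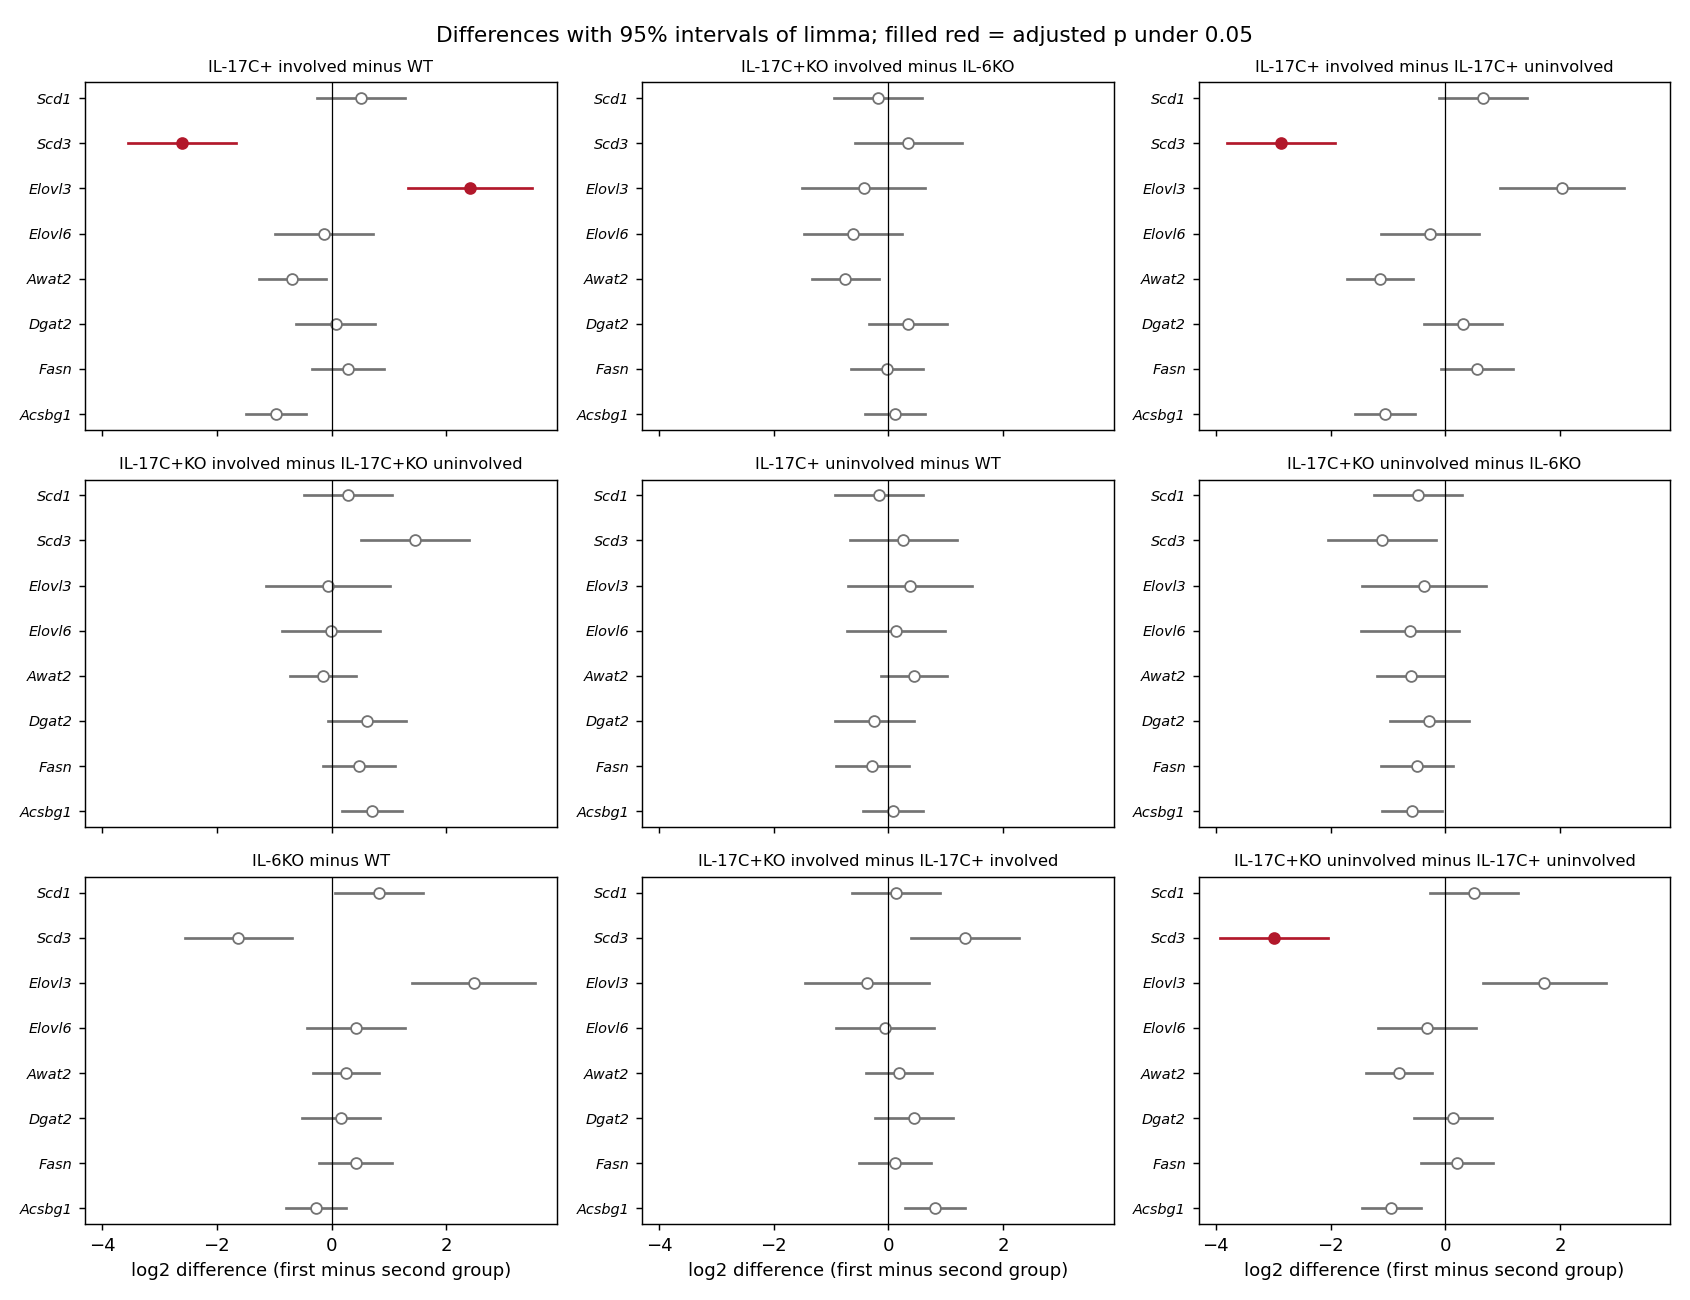
Log2 difference of each of the 8 genes (first minus second group, horizontal axis) in the 9 comparisons between groups, with 95% intervals of limma and filled red points where the adjusted p was under 0.05. Scd3 passed in 3 panels, always lower, and Elovl3 in 1, higher in IL-17C+ involved than in WT skin.

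Age moved Fasn most. It averaged 9.28 ± 0.39 at 14 weeks and 8.79 ± 0.29 at 10 weeks (SD, n = 6 each), a difference of 0.49 ± 0.17, higher at 14 weeks in 5 of 6 groups, but it did not pass (limma adjusted p = 0.571). The WT pools differed most, by 1.09, and the exception was IL-17C+ uninvolved skin, at 8.56 at 14 weeks and 8.70 at 10 weeks. Scd1 was also higher at 14 weeks in 5 of 6 groups (0.32 ± 0.20, limma adjusted p = 0.632), with the same exception. No gene of all 22180 passed for age in limma (0%), while 1856 had an unadjusted p under 0.05, Fasn among them.

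The wider pathway was described from lists of other genes. In IL-17C+ involved against WT skin, where 1.8% of all genes passed, 2 of 21 other sebaceous gland genes rose and none fell. They were Fabp5, a fatty acid carrier also known from stressed epidermis (2.44 ± 0.33, limma adjusted p = 0.00291), and Dgat1, a triglyceride-forming acyltransferase (1.43 ± 0.30, limma adjusted p = 0.0319). The largest that did not pass was Awat1, of wax ester synthesis (1.42 ± 0.47, limma adjusted p = 0.202), and the list median was 0.53 against 0.01 over all genes. In the site contrast of IL-17C+ skin only Fabp5 passed (2.08 ± 0.33, limma adjusted p = 0.00739). Fabp5 was also higher in IL-17C+KO uninvolved than in IL-17C+ uninvolved skin (1.72 ± 0.33, limma adjusted p = 0.0327). In each of the 2 interactions 1 gene of this list passed on the negative side. The shares of all genes passing in these comparisons are given above.

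Among 17 genes of fatty acid synthesis and desaturation none passed in any of the 12 comparisons. The largest in IL-17C+ involved against WT skin was the elongase Elovl7 (1.45 ± 0.38, limma adjusted p = 0.0785), and the list median was 0.01. Among 18 cholesterol synthesis genes none passed either, with Cyp51, a sterol demethylase, at 1.24 ± 0.44 (limma adjusted p = 0.233) and a list median of 0.56 in that comparison. In IL-6KO against WT skin that list had a median of 0.62, against -0.01 over all genes.

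Of 17 epidermal barrier lipid genes, Alox12e, an epidermal lipoxygenase, fell in IL-17C+ involved skin against WT (-2.01 ± 0.33, limma adjusted p = 0.00913) and against IL-17C+ uninvolved skin (-2.03 ± 0.33, limma adjusted p = 0.00742). It was also lower in IL-6KO than in WT skin (-1.78 ± 0.33, limma adjusted p = 0.0376). Degs2, which helps make the ceramides of the barrier, rose in IL-17C+ involved against uninvolved skin (1.48 ± 0.30, limma adjusted p = 0.0269). The largest that did not pass against WT was the ceramide synthase Cers3 (1.32 ± 0.32, limma adjusted p = 0.0608), and the list median was 0.84. In this list 1 gene was also lower in IL-17C+KO uninvolved than in IL-17C+ uninvolved skin. In the site interaction 1 gene passed on each side.

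Likeness of pattern was measured by Pearson r of log2 levels over the 12 arrays. These arrays are 6 groups at 2 ages and share group differences, so r is given as a description only. Scd1, Fasn and Dgat2 went together, with r of 0.90 for Scd1 and Fasn, 0.84 for Dgat2 and Fasn and 0.72 for Scd1 and Dgat2. Scd3 and Acsbg1 went together at 0.90, and Elovl3 ran opposite to Scd3 at -0.80. The differences between 14 and 10 weeks over the 6 groups gave 0.96 for Scd1 and Fasn, 0.76 for Dgat2 and Fasn and 0.63 for Scd1 and Dgat2. They gave only 0.44 for Scd3 and Acsbg1 and -0.29 for Scd3 and Elovl3. The adipocyte list mean had r of 0.72 with Dgat2, 0.64 with Fasn and 0.57 with Scd1, but 0.26 with Scd3 and 0.02 with Elovl3. The mean of the other sebaceous genes had r of 0.91 with Elovl3 and 0.88 with Scd1, but -0.57 with Scd3.

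**Figure D3:**
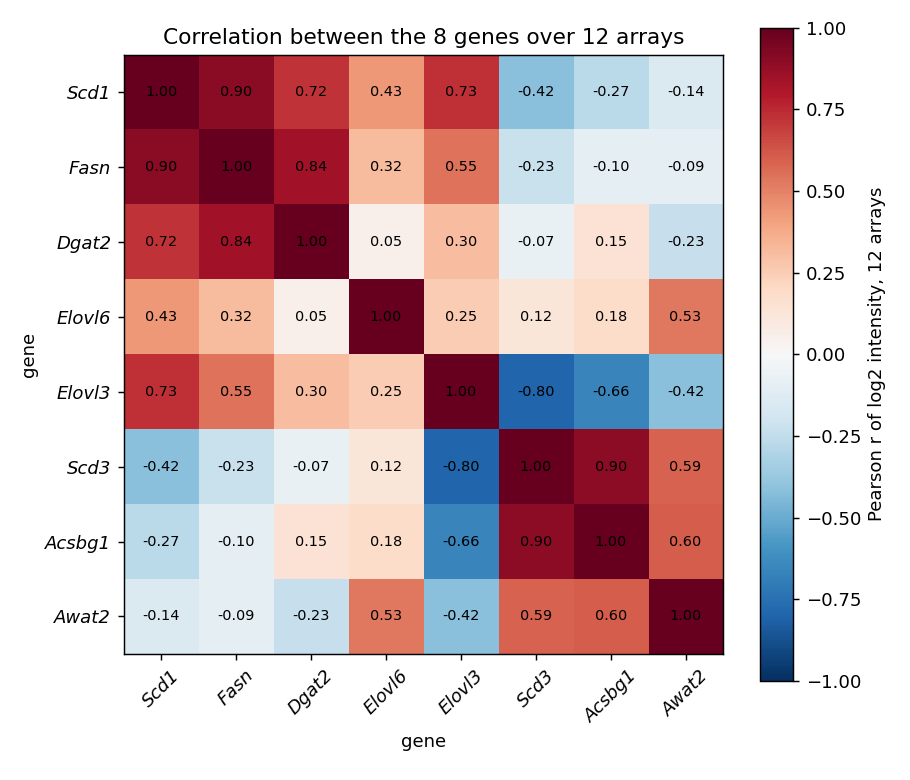
Pearson r of log2 intensity between each pair of the 8 genes over the 12 arrays, red for positive and blue for negative. Scd1, Fasn and Dgat2 form a positive block (0.72 to 0.90), as do Scd3 and Acsbg1 (0.90), and Elovl3 is negative with Scd3 (-0.80).

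Among 10492 named genes above the median level, those most like Elovl3 were Serpinb12 (0.97), Lce1f (0.97) and Flg (0.97), of which Lce1f and Flg encode proteins of the cornified epidermis. Those most like Scd3 were Serpina3b (0.97), Ephx1 (0.96) and Igfbp6 (0.95). Those most like Acsbg1 were Col17a1, a collagen of basal keratinocytes (0.97), Tnfrsf19 (0.96) and Skint7 (0.96). Scd1 was most like Dcun1d3 (0.96), Shmt1 (0.94) and Kdsr, an enzyme of ceramide synthesis (0.93), and Fasn most like Pcx, pyruvate carboxylase (0.96), Scd1 itself and Dnaja3 (0.90 each). Dgat2 was most like Scap, the sterol-sensing escort of the SREBP factors (0.89), Awat2 like Tedc2 (0.87) and Elovl6 like Cinp (0.78).

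Across the arrays the level of stress keratinocyte genes and that of Scd3 and Acsbg1 ran opposite. The 4 arrays with the highest stress mean (10.18 to 10.50) held the lowest Scd3 (5.95 to 6.93) and the lowest Acsbg1 (7.02 to 7.38), and r with the stress mean was -0.92 for Scd3 and -0.95 for Acsbg1. Elovl3 had r of 0.78 with the stress mean and was highest, at 10.61 and 10.60, on the 14-week IL-6KO and IL-17C+KO involved arrays, whose stress means were 7.85 and 8.20. Fasn had r of 0.21 with the stress mean. The muscle mean, in turn, had r of 0.91 with Scd3, 0.82 with Acsbg1 and -0.85 with Elovl3, and which of these goes with the lipid genes cannot be told apart here.

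**Figure D4:**
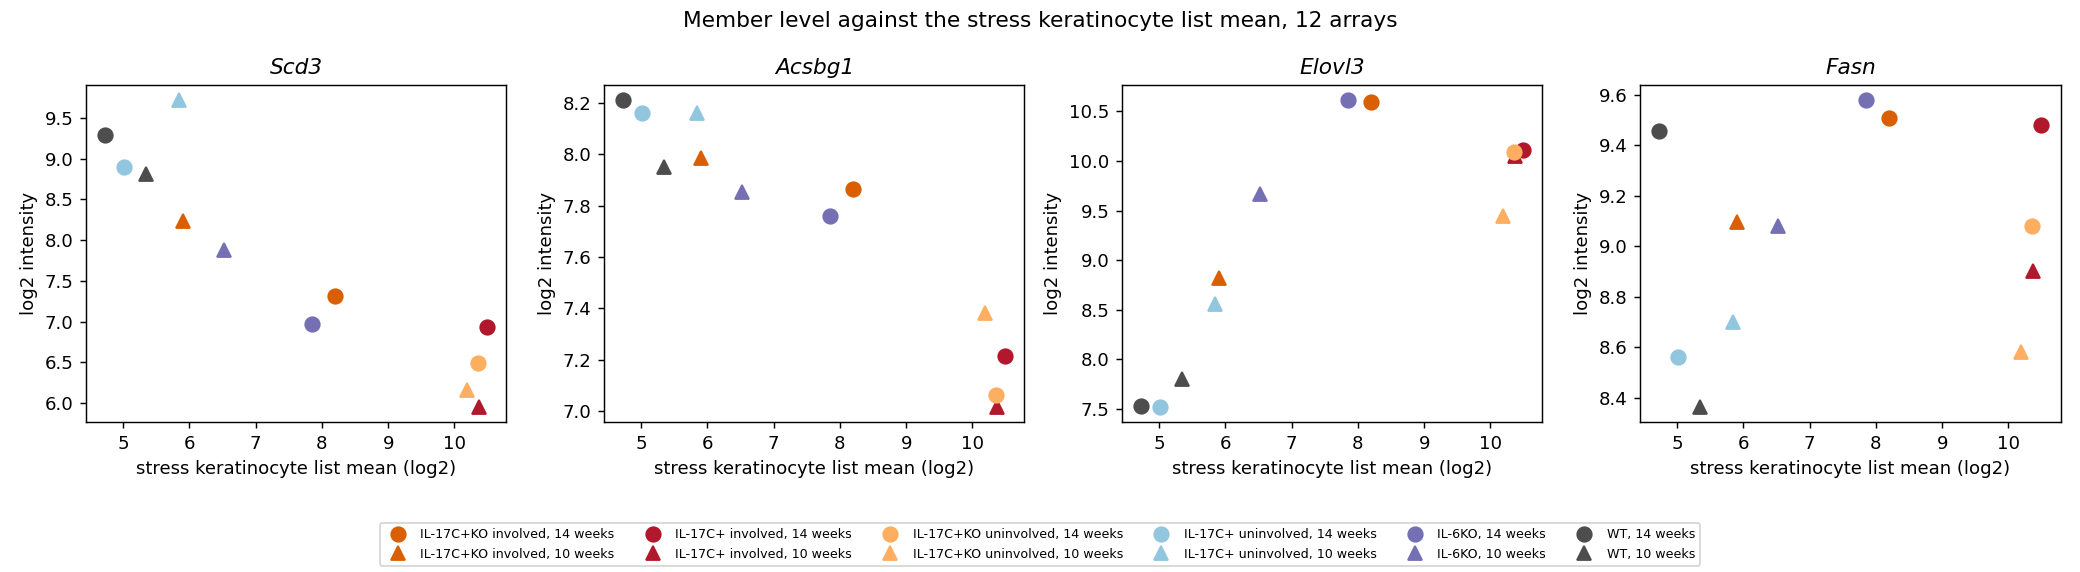
Log2 intensity of Scd3, Acsbg1, Elovl3 and Fasn (vertical axes) against the mean log2 intensity of 11 stress keratinocyte genes (horizontal axis) on the 12 arrays, coloured by group, with circles for 14 and triangles for 10 weeks. Scd3 and Acsbg1 are lowest on the 4 arrays with stress means of 10.18 to 10.50, and Elovl3 is highest on 2 arrays with means of 7.85 and 8.20.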

How the data were processed

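RNA of pooled mouse dorsal skin was read on 12 arrays. The authors deposited 1 table of linear array intensities (2.5 to 18385, array medians 15.7 to 18.8), made with RMA in Affymetrix Expression Console per the submitters' processing notes, with versions and probe filters not stated there. Log2 values had been assumed in planning; log2 was taken here. Of 41345 rows, 23521 name 1 gene; the row with the highest mean stood for a gene, leaving 22180 genes, of which 21994 matched RefSeq by gene ID, all with the same symbol. Each of the 8 members had a single row.

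Groups came from the sample titles. Differences were fitted in R 4.3.3 with limma 3.58.1 (eBayes with an intensity trend) as group plus age over all 12 arrays (5 residual and 7.65 prior degrees of freedom), for 9 comparisons between groups, 2 interactions and age, and the model was tested on simulated data. Age pairs the pools across groups by label; the 14-minus-10-week differences of 2 groups correlated at -0.21 to 0.52 over genes (15 pairs of groups).

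The members and the gene lists were chosen with earlier results of these data known. All 8 measured members are named; from other lists, genes past the threshold and the largest short of it could be named, and for each member the 3 genes of highest Pearson r. Genes without a row of their own were left out. Alternatives were a replicate block of genotype and age or none at all, eBayes without the trend, a filter on low genes, quantile normalization again, the mean of all rows, muscle or adipocyte means as covariates, 4 arrays only and each array left out.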

Additional observations from a re-analysis of the deposited data

Results flagged for a closer look

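By their labels, the effect of site or of the transgene differed with IL-6 status in 3 results, by a test of the interaction itself. Of all genes, 2.58% passed for the site interaction and 1.31% for the transgene interaction. As described above, the Acsbg1 call and the Scd3 call for the transgene were lost under several alternatives. With the muscle list mean as a covariate all 3 calls were lost. For Scd3 the site difference in IL-17C+KO minus that in IL-17C+ skin was 4.32 (SE 0.61, 2 of 2 ages positive), between parts of opposite sign. For Acsbg1 it was 1.75 (SE 0.34, 2 of 2 ages positive), again between parts of opposite sign. For Scd3 the difference of IL-17C+KO involved against IL-6KO skin (0.35) exceeded that of IL-17C+ involved against WT skin (-2.61) by 2.95 (SE 0.61, 2 of 2 ages positive). By label the first sets involved against involved skin and the second involved against uninvolved skin. Site and transgene thus cannot be told apart in this result. The stress keratinocyte mean, at 8.20 and 5.90 in IL-17C+KO involved against 10.36 and 10.18 in IL-17C+KO uninvolved skin at 14 and 10 weeks, goes against the site labels on which all 3 results rest. For the site results the IL-17C+KO part, 1.45 for Scd3 and 0.70 for Acsbg1, would change sign if those labels were exchanged. The IL-17C+ part was -2.87 for Scd3 and -1.05 for Acsbg1, so both parts would then be negative and the interaction smaller. Stress keratinocyte genes moved with all 3 results, with 10 of 11 on the negative side for site and 9 of 11 for the transgene. Muscle genes did too, with 13 of 15 on the positive side for site and for the transgene.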

How the results depend on the processing

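Among single members, 5 of 578 values under alternatives other than leaving out an array changed sign, each under quantile normalization again and each far from passing: Dgat2 to -0.0242 in IL-17C+ involved against WT, Fasn to 0.0141 in IL-17C+KO involved against IL-6KO, Elovl3 to 0.0578 and Elovl6 to 0.0370 in IL-17C+KO involved against uninvolved, and Acsbg1 to -0.0532 in IL-17C+ uninvolved against WT. The count of members called in IL-17C+ involved against uninvolved skin, 1 as reported, was 2 with no replicate block or an untrended eBayes, 3 after a repeated quantile normalization or with WT and IL-6KO at 10 weeks left out, and 4 with the filter on low genes, with the replicate block of genotype and age and with only the 4 arrays. Fitting no replicate block changed no other count of members. The block of genotype and age was run only for the contrasts of site and the site interaction, and changed no other count there. Shares of all genes passing under each setting are not given beside the member counts here. In IL-17C+ involved against WT skin the 2 members became 3, with Acsbg1 gained, under eBayes without the trend and quantile normalization again, and 1 with the adipocyte list mean as a covariate and in both settings chosen after seeing the data (leaving out all IL-6KO and IL-17C+KO uninvolved arrays, or WT and IL-6KO at 10 weeks). With the muscle list mean as a covariate every member count that was above 0 became 0. That mean itself differed between groups, at 7.59 and 7.91 at 14 and 10 weeks in IL-17C+ involved, against 10.59 and 9.85 in WT skin. A fit with it therefore cannot separate the muscle mean from the group, and in this comparison 0 of all genes passed as well. With the adipocyte mean the transgene interaction had 0 and the site interaction 1, and eBayes without the trend left 0 for the transgene interaction. The filter and the 4-array fit gave 1 in IL-6KO against WT, and the 4-array fit also gave 1 in IL-17C+KO uninvolved against IL-6KO and 2 in IL-17C+KO uninvolved against IL-17C+ uninvolved skin. With 1 array left out at a time, the lone array of its group being assumed to vary like the others, member counts ran from 0 to 2 in IL-17C+ involved against WT, 0 to 3 in IL-17C+ involved against uninvolved, 0 to 1 in IL-6KO against WT, 0 to 2 in IL-17C+KO against IL-17C+ uninvolved, 0 to 2 for the transgene and 1 to 3 for the site interaction. Counts over all genes ranged, over all these alternatives, from 0 to 883 (399 as reported) in IL-17C+ involved against WT, 0 to 770 (357) in IL-17C+ involved against uninvolved and 14 to 861 (573) for the site interaction. The age comparison was not run without its block. Low levels limit Awat2, which lay near the array medians.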
